A study of Mus musculus with 4 samples.

Results

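A set of 6 genes that encode RNA-binding regulators of germ cells was followed in RNA recovered with FLAG-tagged NANOS2 from the mouse testis: the 3 NANOS genes (Nanos1, Nanos2 and Nanos3), Dnd1, Pum2 and Dazl. They were chosen by name, with earlier results of these data known, and every array probe whose RefSeq accession belongs to one of them was kept. This gave 8 probes of the 41174 on the array, for 6 genes of the 16358 with a symbol, with 2 probes each for Nanos1 and Dazl and 1 for each other gene. All 8 probes were well above background on all 4 arrays and were among the 27830 tested.

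The samples were testes of postnatal day 7 male mice that carry a transgene in which a Nanos2 enhancer drives 3xFLAG-tagged Nanos2 followed by the Nanos2 3′UTR. The FLAG IP group (n = 2) is labelled as RNA of the FLAG immunoprecipitation and the Input group (n = 2) as RNA of the starting material, both from this same genotype, and each sample was hybridised to a single-colour Agilent whole-genome array. The series calls the duplicates biological without naming animals, so the p-values measure only the spread between these samples. The description fields speak of an embryonic gonad, and the day 7 of the titles and characteristics was taken as the age. The labels do not describe the immunoprecipitation itself, and no array of a FLAG precipitate from testes without the tag was analysed here. A difference between FLAG IP and Input is therefore a difference in a transcript's share of the 2 RNA pools and does not by itself show binding to NANOS2. Because the testes carry a tagged Nanos2 transgene besides the mouse's own gene, and the position of the probe in the transcript is not known here, the Nanos2 signal cannot be divided between the 2 transcripts.

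NANOS proteins carry a pair of CCHC zinc fingers and repress messenger RNAs by recruiting the CCR4-NOT deadenylase, which shortens poly(A) tails. In the male germ line of the mouse, NANOS3 is needed for the survival of primordial germ cells, NANOS2 suppresses meiosis in the fetal testis and maintains spermatogonial stem cells after birth, and mice that lack NANOS1 are fertile. DND1 is an RNA-binding partner of NANOS2 and NANOS3, PUM2 is a Pumilio-family protein of the kind that acts with Nanos in the fly, and DAZL is a germ-cell RNA-binding protein that acts on the translation of its targets.

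A level below is the log2 signal of a probe minus that of its array's 75th percentile, and a change is the FLAG IP level minus the Input level. Errors of changes are limma standard errors, n is 2 arrays per group throughout, adjusted p-values are Benjamini-Hochberg values of limma over all 27830 tested probes, and a probe is called when that value is under 0.05. Levels of different probes are not set against each other, since probes differ in how brightly they report the same amount of RNA. The 75th percentile signal was 1055 and 1303 on the FLAG IP arrays and 1511 and 1724 on the Input arrays, and 0 spots were saturated. All 4 arrays were on 1 slide and came from 1 scan. Of the markers listed for testis cells, 8 of 8 for germ cells and 8 of 8 for Sertoli cells were well above background on all 4 arrays, so the tissue carried both.

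Among the 6 genes, Nanos1 and Nanos2 rose in the FLAG IP, and Nanos3, Dnd1, Pum2 and Dazl were not called. The calls in limma were 3 of 8 probes higher and 0 lower, and at an unadjusted p under 0.05 they would be 5 higher and 0 lower. Of all tested probes 35.9% were called, 15.5% higher and 20.4% lower, and at an unadjusted p under 0.05 the shares would be 20.2% higher and 28.9% lower. The 3 called probes belong to 2 genes, so they are not 3 separate observations.

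**Figure D1:**
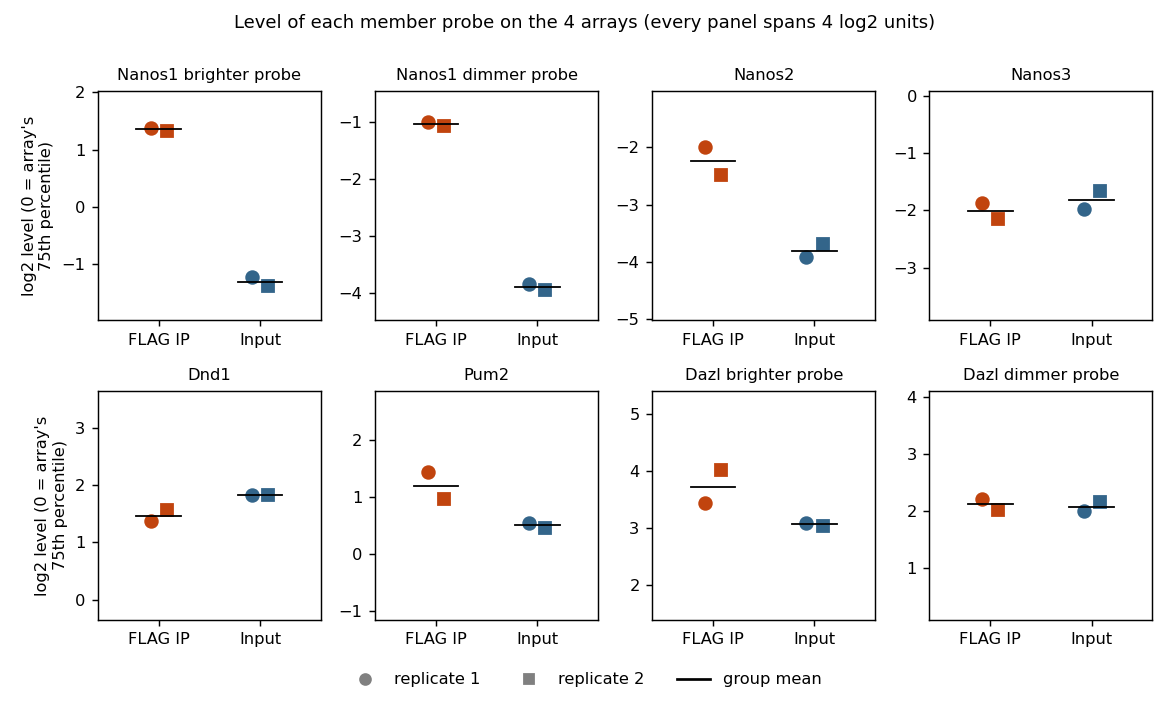
Log2 level of each of the 8 probes on the 4 arrays, with FLAG IP in orange on the left of each panel and Input in blue on the right, circles for replicate 1, squares for replicate 2 and a bar for the group mean (n = 2). Zero is the array's 75th percentile and every panel spans the same number of log2 units, so distances compare between panels. The groups lie far apart for both Nanos1 probes and for Nanos2, overlap for Nanos3 and for the dimmer Dazl probe, and are close together for Dnd1.

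Nanos1 had the highest changes of the 6 genes. On its brighter probe (A_52_P231232, RefSeq NM_178421) the level was 1.38 and 1.33 in the FLAG IP arrays, against −1.23 and −1.38 in the Input arrays. On its dimmer probe (A_52_P201800, same accession) it was −1.01 and −1.08 in the FLAG IP arrays, against −3.83 and −3.94 in the Input arrays. On either probe both FLAG IP arrays lay far above both Input arrays, and the replicates of a group were at most 0.15 apart.

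The change was 2.66 ± 0.14 (SE, adjusted p = 0.0041) on the brighter Nanos1 probe and 2.84 ± 0.14 (adjusted p = 0.0041) on the dimmer one, which is 6.33-fold and 7.18-fold higher. Over the array pairs, the smallest difference was 2.56 on the brighter probe and 2.76 on the dimmer one. Of all tested probes, 0.747% had a higher change than the brighter probe and 0.528% a higher change than the dimmer one. Both calls held under all 15 other settings tried, scaling to spike-in spots included, where the changes were 1.57 and 1.75. The 15 settings, here and below, are not 15 separate checks. The authors' deposited table holds the same signal plus a constant for nearly all probes. Another setting takes the spike-in scaling out again by centring each array on its median.

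The processed signals before any scaling between arrays show the same order of the groups. The brighter Nanos1 probe read 2742 and 3268 in the FLAG IP arrays, against 642 and 660 in the Input arrays. The dimmer one read 524 and 618 in the FLAG IP arrays, against 106 and 112 in the Input arrays. The signal itself was thus higher in the FLAG IP although the arrays of that group were dimmer as a whole. The dimmer Nanos1 probe was dim in the Input arrays, with a raw median signal of 157 and 148.5 over a local background of 56.5 and 53. Under normexp background correction its change was 2.196, against 2.555 on the brighter probe, and both were still called.

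Nanos2, the gene whose tagged product was precipitated, was measured by 1 probe (A_52_P624495, NM_194064). Its level was −1.99 and −2.48 in the FLAG IP arrays, against −3.91 and −3.70 in the Input arrays. The groups did not overlap, as was the case with FLAG IP higher for 30.3% of tested probes. The FLAG IP replicates were 0.49 apart, more than the 0.21 between the Input replicates. The change was 1.57 ± 0.22 (adjusted p = 0.010), or 2.97-fold higher with a 95% confidence interval of 2.01-fold to 4.40-fold, and 3.99% of tested probes had a higher change.

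The Nanos2 spot was dim, with a processed signal of 265 and 234 in the FLAG IP arrays and 101 and 133 in the Input arrays. Its raw median signal was 338 and 288 in the FLAG IP arrays and 168 and 204 in the Input arrays, over a local background of 51.0 to 61.0 on the 4 arrays. Under normexp background correction the change of Nanos2 was 1.24 and still called in limma (adjusted p = 0.0042). Leaving out Input replicate 1 ended the call, with a change of 1.46 (adjusted p = 0.066), and scaling to spike-in spots ended it too, with a change of 0.48 (adjusted p = 0.39). Under spike-in scaling the median change of all tested probes was −1.22, and with each array then centred on its median Nanos2 changed by 1.58 (adjusted p = 0.0087). Spike-in scaling moves all probes of an array by the same amount, and centring takes that amount out again. The centred value is therefore no check on the spike-in result.

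**Figure D2:**
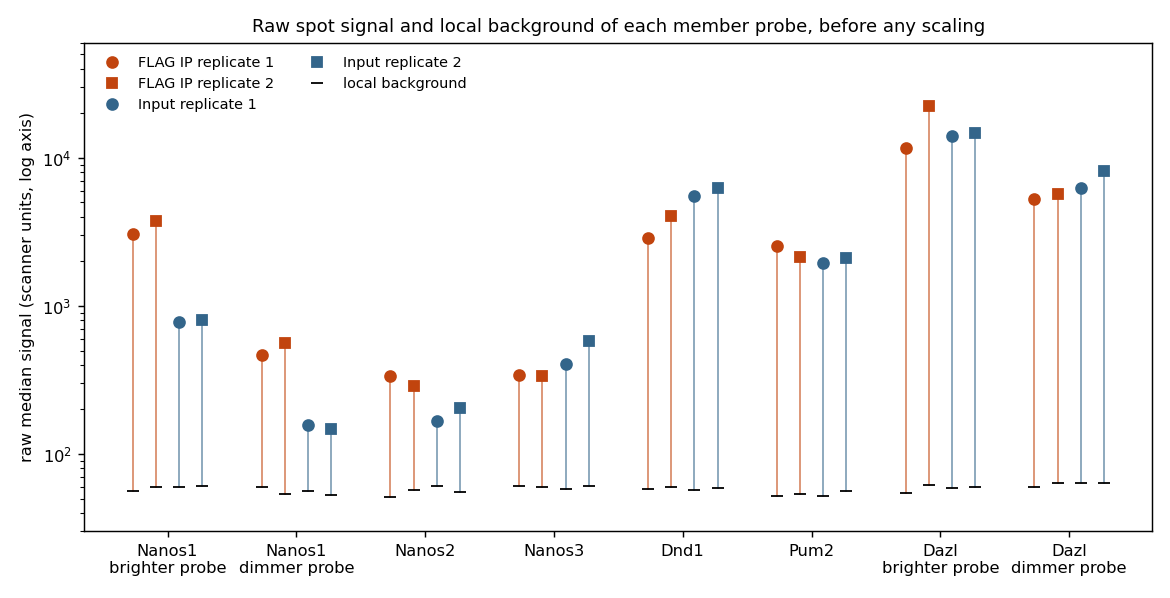
Raw median signal of each probe's spot before any scaling, on a log axis in scanner units, for the FLAG IP arrays (orange, left of each cluster) and the Input arrays (blue), joined by a line to the local background of the same spot (black dash). The Nanos2 spot read 338 and 288 in the FLAG IP arrays and 168 and 204 in the Input arrays over a background between 51.0 and 61.0, whereas the Dnd1 and Dazl spots lay far above background on every array.

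Nanos3 was not called. Its probe (A_51_P105480, NM_194059) had levels of −1.87 and −2.15 in the FLAG IP arrays, against −1.98 and −1.67 in the Input arrays, and the groups overlapped. The difference was −0.19 ± 0.19 (adjusted p = 0.47), with a 95% confidence interval of −0.68 to 0.31. The interval covers differences in either direction and does not reach the changes measured for Nanos1 and Nanos2. Whether the 3 NANOS genes differ in their change was not tested.

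Dnd1 was not called either. Its probe (A_51_P285790, NM_173383) had levels of 1.37 and 1.56 in the FLAG IP arrays, against 1.82 and 1.83 in the Input arrays. Both FLAG IP arrays lay below both Input arrays, as they did for 43.8% of all tested probes. The difference was −0.36 ± 0.15 (adjusted p = 0.11), with a 95% confidence interval of −0.74 to 0.02. Under spike-in scaling Dnd1 and Nanos3 were called lower, at −1.45 and −1.28, beside the median of −1.22 for all probes under that scaling.

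Pum2 missed the threshold by little. Its probe (A_51_P228385, NM_030723) had levels of 1.43 and 0.96 in the FLAG IP arrays, against 0.55 and 0.46 in the Input arrays. The groups did not overlap, as was the case with FLAG IP higher for 30.3% of tested probes, and FLAG IP replicate 1 lay 0.47 above replicate 2. The difference was 0.69 ± 0.20 (adjusted p = 0.055), or 1.62-fold, with a 95% confidence interval of 0.16 to 1.23. It passed under 5 of the 15 other settings, among them the fit without FLAG IP replicate 2 (0.93, adjusted p = 0.023), and under spike-in scaling its sign turned (−0.40, adjusted p = 0.48).

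The 2 probes of Dazl disagreed. On the brighter probe (A_52_P271166, NM_010021) the level was 3.44 and 4.01 in the FLAG IP arrays, against 3.10 and 3.05 in the Input arrays. On the dimmer probe (A_51_P246060, same accession) it was 2.22 and 2.03 in the FLAG IP arrays, against 1.997 and 2.17 in the Input arrays. The groups did not overlap on the brighter probe, with FLAG IP higher as for 30.3% of tested probes, and overlapped on the dimmer one.

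The difference was 0.66 ± 0.23 on the brighter Dazl probe (adjusted p = 0.081) and 0.04 ± 0.16 on the dimmer one (adjusted p = 0.85), and both turned negative under spike-in scaling (−0.43 and −1.05). Averaged over both probes it was 0.35 (adjusted p = 0.12). The brighter probe was called without FLAG IP replicate 1, at 0.94 (adjusted p = 0.024), and read 0.37 without FLAG IP replicate 2. Within an array the brighter probe exceeded the dimmer one by 1.23 and 1.99 in the FLAG IP arrays and by 1.101 and 0.88 in the Input arrays, so FLAG IP replicate 2 was the array on which they diverged most. For Nanos1 the same distance was 2.39 and 2.40 in the FLAG IP arrays and 2.60 and 2.56 in the Input arrays, and its 2 changes differed by 0.18.

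**Figure D3:**
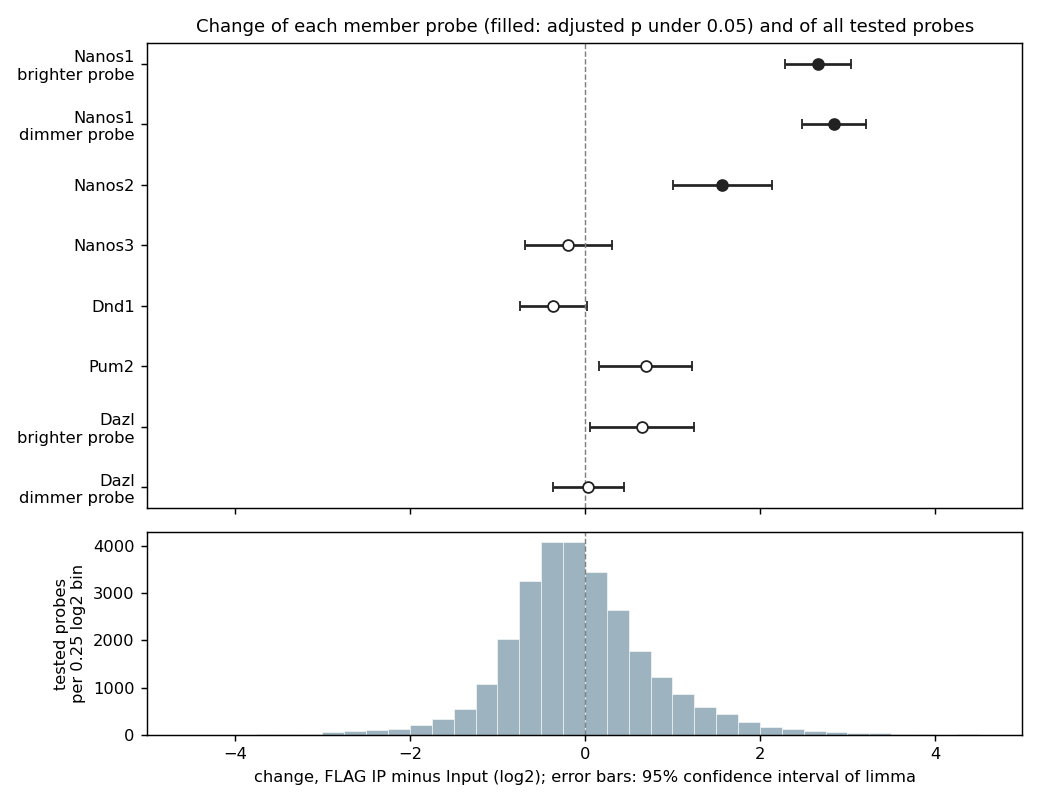
Upper panel, change of each probe (FLAG IP minus Input, log2) with its 95% confidence interval from limma (n = 2 arrays per group), filled where the adjusted p was under 0.05. Lower panel, the changes of all 27830 tested probes counted in bins on the same axis. Both Nanos1 probes (2.66 and 2.84) and Nanos2 (1.57) lie in the upper tail, beyond the 95th percentile of 1.43, and the other 5 probes lie between −0.36 and 0.69.

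The 2 FLAG IP arrays differed from each other in ways that touch these genes. Nanos2, Nanos3, Pum2 and the dimmer Dazl probe were higher on FLAG IP replicate 1, by 0.49, 0.28, 0.47 and 0.19. Dnd1 and the brighter Dazl probe were higher on replicate 2, by 0.18 and 0.57, so the 2 Dazl probes went opposite ways. The Nanos1 probes were at most 0.07 apart. The summed level of the 8 germ cell markers, on a linear scale, was 75.8 and 95.3 in the FLAG IP arrays, against 63.6 and 63.7 in the Input arrays. That of 9 markers of undifferentiated spermatogonia, a population that includes the stem cells in which Nanos2 is expressed, was 17.4 and 14.6 in the FLAG IP arrays, against 4.14 and 4.17 in the Input arrays. Bright probes weigh most in such sums. The germ cell sum includes Taf7l and Tex13b, the 2 of its 8 markers that were called higher, at 1.40 and 1.63. The other 6 changed by −0.74 to 0.37, and the median of the 8 was 0.13, so the sum does not show a general rise of germ cell markers.

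Cell type markers moved with the comparison as well. Of the markers of undifferentiated spermatogonia 8 of 9 were called higher, with a median change of 1.61, or 1.31 with the bound in place of Ret, whose probe was at background on both Input arrays. The 8 include Ret, which was tested only through its signal on the FLAG IP arrays, so its call is no support. The median of 1.61 is the change of Ret itself. Of the general germ cell markers 2 of 8 were called higher, with a median of 0.13, and Ddx4, the germ-cell RNA helicase, changed by 0.16 ± 0.26 (adjusted p = 0.66). Called lower were 3 of 8 tested markers for Sertoli cells, 3 of 6 for Leydig cells and 3 of 6 for peritubular myoid cells. For macrophages 4 of 4 tested markers were called lower, and for endothelial cells 0 of 5. At an unadjusted p under 0.05 in limma, 8, 3, 5, 4 and 1 were lower in this order. The medians were −0.74, −0.77, −0.65, −1.12 and −0.30. Of all genes by brightest probe, 15.9% were called higher and 19% lower, with a median of −0.13. At an unadjusted p under 0.05 in limma 28% were lower. The Leydig median was −0.68 with the bound in place of Lhcgr, the luteinizing hormone receptor, whose probe was called lower but was at background on both FLAG IP arrays, which makes it at least 1.77-fold lower. Their summed levels were 49.4 to 51.4 in the FLAG IP against 72.6 to 74.2 in the Input for Sertoli cells and 12.9 to 16.7 in the FLAG IP against 27.4 to 36.4 in the Input for Leydig cells. They were 68.8 to 71.1 in the FLAG IP against 105 to 116 in the Input for myoid cells, and 1.07 to 1.21 in the FLAG IP against 2.61 to 2.67 in the Input for macrophages. For endothelial cells they overlapped, at 1.05 to 1.45 in the FLAG IP and 1.29 to 1.88 in the Input. The part of these shifts in the changes of Nanos1 and Nanos2 was not tested. The Input is RNA of whole tissue, in which fewer cells of a type and less RNA per cell cannot be told apart, and marker levels in a precipitate do not count cells.

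The 5 lists of genes around the 6 regulators were described through the brightest probe of each gene. Of the 13257 genes tested that way, 15.9% were called higher and 19.0% lower, with a median change of −0.13. The lists share those arrays with the results above and are given as counts and medians, with no test of a list. They also share genes. Taf7l, Lin28a and Ddx4 are among the cell type markers above too. Sycp3 is both among the genes known to rise without NANOS2 and among the known targets. The counts are therefore not all separate observations. In each list up to 4 genes are named, called ones first. Where a list had 0 genes called lower in limma, 1 gene had an unadjusted p under 0.05 with a negative change, except among the known targets, where 0 did. Of all genes 20.5% had such a p with a positive change and 28% with a negative one.

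Of the PUF and DAZ relatives, 0 of 5 were called in limma in either direction, 1 had an unadjusted p under 0.05 (Dazap1), and the median was −0.09. Dazap1, a DAZ-associated protein, had −0.44 (adjusted p = 0.099), Nop9, a Pumilio-fold protein of the nucleolus, −0.23, Dazap2 0.18 and Pum3, a nucleolar protein with Pumilio repeats, 0.14.

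Of the CCR4-NOT subunits, the deadenylase that NANOS2 recruits, 3 of 10 tested were called higher and 0 lower, with a median of 0.28. Cnot6l, a catalytic subunit, rose by 1.26 ± 0.16 (adjusted p = 0.0091) and its other probe by 1.89. Cnot4, a ubiquitin ligase that associates with the complex, rose by 0.85 ± 0.16 (adjusted p = 0.018). The 2 probes of Cnot7, another catalytic subunit, were called in opposite directions, at 0.67 (adjusted p = 0.032) and −0.76 (adjusted p = 0.022), so its direction is not settled. Cnot2, a scaffold subunit, had −0.49 (adjusted p = 0.090), while 1 of its other probes was called lower at −0.86. The genes Cnot8 and Cnot11, named after their values were seen, were not called on their brightest probe, at 0.27 and −0.26. Their other probes were called higher, at 0.54 and 1.35. The 2 probes of Cnot11 thus differ in sign, and its direction is not settled.

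Of the genes known to rise in male germ cells without NANOS2, which mark meiosis and differentiation, 2 of 7 were called higher and 0 lower, with a median of −0.10. Whether the knowledge behind this list drew on these arrays is not known here, so its counts are no independent evidence. Taf7l, a germ-cell paralogue of a TFIID subunit, rose by 1.40 ± 0.16 (adjusted p = 0.0077). Sohlh2, a helix-loop-helix factor of differentiating spermatogonia, rose by 0.81 ± 0.18 (adjusted p = 0.028). Kit, the receptor of differentiating spermatogonia, had −0.55 (adjusted p = 0.077) and Dmc1, the meiotic recombinase, −0.31.

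Of the known mRNA targets of DND1, DAZL or Pumilio proteins, 0 of 7 were called in limma, 1 had an unadjusted p under 0.05 (E2f3), and the median was 0.29. Cdkn1b, which encodes the cell cycle inhibitor p27, had levels of −3.25 and −4.36 in the FLAG IP arrays, against −4.44 and −4.09 in the Input arrays. These overlapped, and the difference was 0.46 ± 0.40 (adjusted p = 0.40). E2f3, a cell cycle transcription factor, had 0.41 (adjusted p = 0.077), with 0.54 on its other probe, which was called (adjusted p = 0.039). Lats2, a kinase of the Hippo pathway, had 0.29 (adjusted p = 0.27), with −0.19 and 0.09 on its other probes. Tex19.1, a germ-cell gene whose translation DAZL supports in mouse oocytes, had 0.29 (adjusted p = 0.49), and its groups overlapped.

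Of the other translational regulators of the germ line, 10 of 17 tested were called higher and 2 lower, with a median of 0.68. Cpeb1, which binds cytoplasmic polyadenylation elements, had levels of 1.05 and 0.93 in the FLAG IP arrays, against −1.07 and −0.97 in the Input arrays, and rose by 2.01 ± 0.14 (adjusted p = 0.0041). Its paralogue Cpeb4 rose by 2.01 ± 0.27 (adjusted p = 0.0097). The Cpeb4 probe was dim, with levels of −3.71 and −4.42 in the FLAG IP arrays, against −6.11 and −6.03 in the Input arrays. Elavl2, a Hu-family protein, rose by 1.91 ± 0.16 (adjusted p = 0.0050). Lin28b, which blocks let-7 maturation, rose by 1.79 ± 0.19 (adjusted p = 0.0066), although its other probe had 0.28 (adjusted p = 0.25). The 2 lower ones, named after their values were seen, were Tia1, a stress granule protein, at −1.06 ± 0.18, and Cpeb2 at −0.60 ± 0.15. Cpeb2 was called under 8 of the 15 other settings, and under normexp background correction it had −0.14 (adjusted p = 0.44). Under that correction the change of Cpeb4 was 1.04 and still called (adjusted p = 0.0060). Of the other probes of Tia1 1 was called lower, at −0.78, and 1 had 0.21 and was not called, and averaged over its probes Tia1 had −0.55 (adjusted p = 0.079). Across the 5 lists 15 genes were called higher, a number that was 0 under spike-in scaling, 3 without Input replicate 1 and 4 without Input replicate 2.

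**Figure D4:**
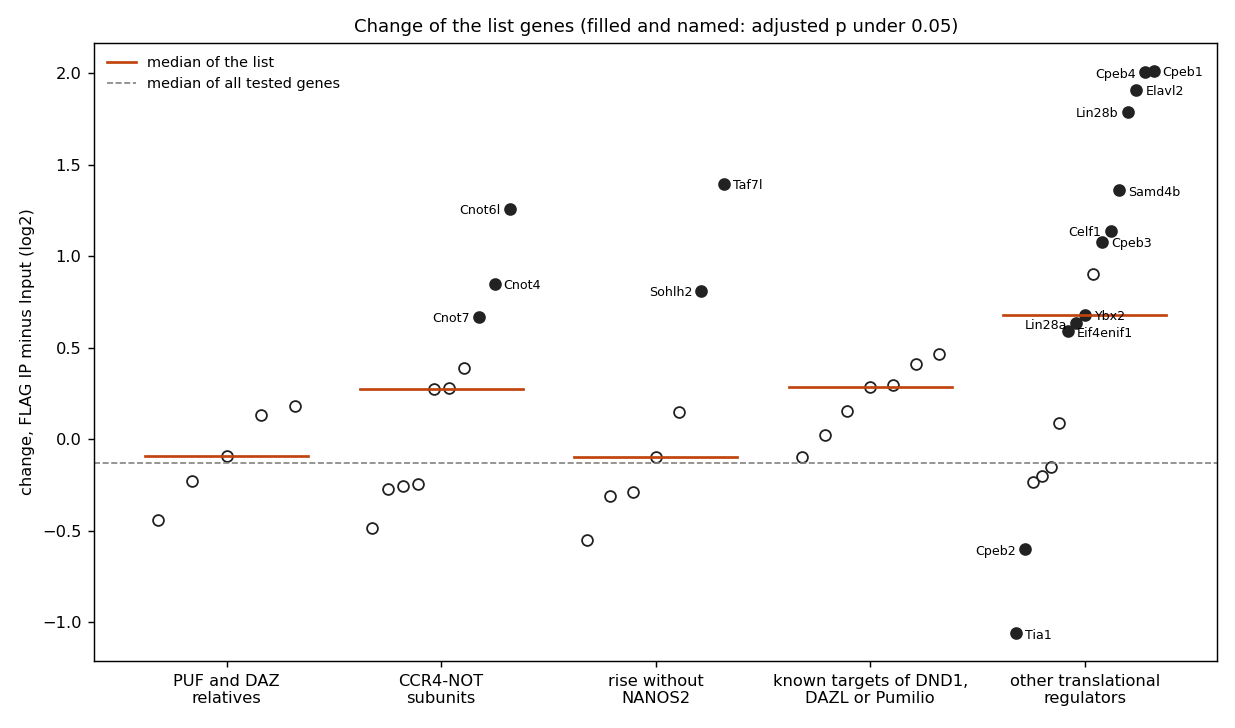
Change of each tested gene of the 5 lists (FLAG IP minus Input, log2, brightest probe), filled and named where the adjusted p was under 0.05, with an orange bar for the list's median and a dashed line for the median of all tested genes (−0.13). The other translational regulators have 10 of 17 genes called higher and a median of 0.68, and 0 of the 7 known targets were called.

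The genes whose 4 values were most alike those of each of the 6 were found by Euclidean distance over the 4 arrays, after each gene's mean over the Input arrays was subtracted, among 12540 genes well above background on all arrays. For Nanos1 they were Lig4, Nt5el and Pus3 (distances of 0.10 to 0.14), and for Nanos2 Sh2d3c, Irgm1 and Cnnm1 (0.04 to 0.06). For Nanos3 they were Slc35g1, Plppr3 and Mboat7, for Dnd1 Cap1, Cc2d1b and Iqcg, for Pum2 Il17f, Ccdc184 and Rnf19a, and for the brighter Dazl probe Srsf1, Cenpj and Rnpc3 (0.02 to 0.08 in all). With 4 arrays in 2 groups, likeness on this measure says little beyond a like change and a like spread of replicates.

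**Figure D5:**
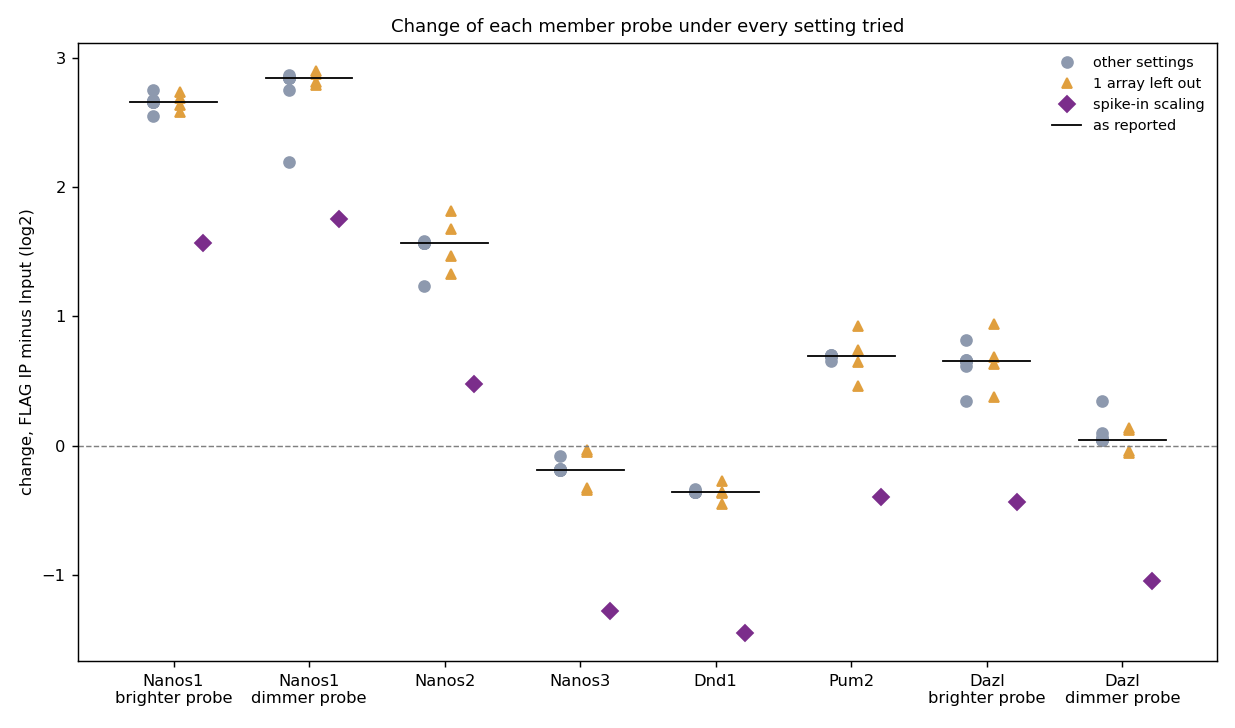
Change of each probe (FLAG IP minus Input, log2) as reported (black bar), with 1 array left out (orange triangles), under spike-in scaling (purple diamonds) and under the other settings (grey circles). Both Nanos1 probes and Nanos2 stay above 0 under every setting shown, and spike-in scaling lowers all 8 probes by the same amount, as it does all tested probes, whose median becomes −1.22 (−0.13 as reported).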

How the data were processed

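Spot intensities come from 1-colour scans read with Agilent Feature Extraction 9.5.1.1, per the file headers (the submitters' processing notes give 9.5). In the deposited files they comprise a background-subtracted processed signal, raw median signals, local backgrounds and spot flags. The authors' deposited table holds log2 values. Its columns equalled the scanner files' processed signal in log2 plus a constant for 99.6% of probes (tolerance 0.01), with column medians of 6.25 and 6.15 (FLAG IP) and 6.18 and 6.25 (Input). Scale, centring and direction are thus known. No source used here names the program that scaled it.

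Here the log2 processed signal minus the log2 75th percentile of the array's non-control spots was used. Between 62 and 90 outlier spots per array were left out, and spots of a probe were averaged. Probes were named by RefSeq accession against assembly GRCm38.p6 (22951 of 41174 probes). The array was designed on another build, so no coordinates are given. Each probe was tested by itself with limma 3.58.1 in R 4.3.3 (lmFit, eBayes, no covariates, two-sided) if the arrays of either group were both well above background. A dim group has only a bound. Of the list genes, Cnot1, Rbm46, Trim71, Csf1r and Cd68 were not matched to a probe and are not analysed here, and 1 listed gene is not reported here. The members and lists were chosen with earlier results of these data known. Named genes are all 6 members, up to 4 genes per list (called first, by size of change) and the 3 genes most alike each member. No sequences are shown.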

Additional observations from a re-analysis of the deposited data

How the results depend on the processing

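The 15 other settings, which are not all separate checks, kept both Nanos1 calls. Changes lay between 1.57 and 2.74 on the brighter probe and between 1.75 and 2.90 on the dimmer one. Both probes averaged gave 2.75. Scaling to the 320 spike-in spots moved the median of all tested probes to −1.22. It gave 436 probes higher and 16190 lower (against 4306 and 5689 as reported), and of the listed genes 0 higher and 16 lower (against 15 and 2). Of the 8 probes 2 were then called higher and 2 lower, with Nanos2 at 0.48, Nanos3 at −1.28, Dnd1 at −1.45, Pum2 at −0.40 and Dazl at −0.43 and −1.05. Of the 15 listed genes called higher as reported, Cnot4 (−0.24), Cnot7 (−0.42), Sohlh2 (−0.28), Cpeb3 (−0.010), Lin28a (−0.46), Ybx2 (−0.41) and Eif4enif1 (−0.50) changed sign, as did the 14 listed genes with a positive change that was not called. With each array then centred on its median, an alternative chosen after seeing the data, spike-in values gave 4385 and 5512 calls, 3 of the 8 probes higher and 15 and 2 of the listed genes. Centring takes the spike-in scaling out again, so these counts are no check on it.

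Pum2 was called under normexp background correction (0.66), with probes well above background on all 4 arrays only (0.69) and with trend and robust moderation (0.69). The brighter Dazl probe was called under quantile normalization (0.82) and with trend and robust moderation (0.66), which called 5 of the 8 probes higher. Without a filter on dim probes 3331 probes were higher and 3701 lower, and 1 listed gene was lower. Averaging the probes of a gene turned Cnot7 (−0.045), whose probes oppose each other. The cause of the other moves was not tested.

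Leaving out 1 array at a time gave changes of 1.33 to 1.81 for Nanos2, −0.34 to −0.03 for Nanos3, −0.46 to −0.27 for Dnd1, 0.46 to 0.93 for Pum2, and 0.37 to 0.94 and −0.055 to 0.14 for Dazl (brighter and dimmer probe). Counts ran from 1082 to 4879 higher and from 876 to 5477 lower over all probes, from 2 to 4 of the 8 probes higher, and from 3 to 15 higher and 0 to 4 lower among listed genes. The lowest counts came without an Input array, where the lone Input array is assumed to vary like the FLAG IP arrays.

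With the replicate number as a block, 2955 probes were higher and 2919 lower, 10 listed genes higher and 1 lower, and the same 3 of the 8 probes were called. The replicate numbers share no stated animal, and the replicates' deviations correlated at −0.38 across probes. A crossed pairing, chosen after seeing the data, called 5463 probes higher and 7943 lower, 5 of the 8 probes higher, with Pum2 (0.69) and the brighter Dazl probe (0.66) added, and 16 listed genes higher and 4 lower. The slide could not be used as a block, since 1 slide held all 4 arrays. The number of arrays and, for Nanos2, a dim signal limit the precision.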
